A study of Mus musculus with 6 samples.

Results

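The genes for the proteins of the cytosolic ribosome were followed in mouse kidney. The 79 genes described were taken by symbol from the 7373 genes of the deposited table: Rpl or Rps followed by a digit, together with Rplp0, Rplp1, Rplp2 and Rpsa, without the ribosomal S6 kinases and without symbols that end as pseudogenes. The symbols gave 83 genes, and the 4 that were listed at 0 in the library of control 3 were left out. The tested samples were 3 kidneys of adult FVB/N mice that carry a transgene for CryAB with the R120G missense change, driven by the α-myosin heavy chain promoter of cardiomyocytes and taken before heart failure set in. They were set against 3 kidneys of control mice of the same strain. The file headers mark all 6 libraries as Pre IRI. All were male and age-matched, though the age itself is not given in the sources used here, and the labels do not state that each library is a separate animal, so the tests measure the spread among these samples. Since the promoter acts in heart muscle, the kidney level of Cryab does not check the genotype labels.

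A cytosolic ribosome joins a small (40S) subunit, which reads the mRNA, to a large (60S) subunit, which forms the peptide bond. The proteins of both subunits are needed in matched amounts, and most of their mRNAs start with a short run of pyrimidines (C or T in the DNA), the TOP element, through which mTORC1 and the protein LARP1 control their translation together. In kidney, as in other tissues, these short mRNAs are among the most abundant of all, and many processed pseudogenes in the genome are near copies of them.

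By role, 40 of the 79 genes encode proteins of the large subunit and 30 encode proteins of the small subunit. Another 3 (Rplp0, Rplp1 and Rplp2) encode the P stalk, which recruits elongation factors. The symbol rule also took 5 near copies of ribosomal protein genes (Rpl22l1, Rpl7l1, Rps27l, Rpl36al and Rps4y2). The last gene, Rps19bp1, encodes a protein that binds Rps19 and is no ribosomal protein itself. The genes lay on 18 chromosomes, with 14 of them on chromosome 7. RefSeq names the gene listed as Rps4y2 Rps4l and annotates it as a transcribed pseudogene.

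The start sites carry the feature by which this family is best known, so 30 bases around the RefSeq start (15 before it and 15 from it on) are shown for 4 genes with a long pyrimidine run and 3 without one. Capitals mark the longest run of C and T within the 30 bases. For Rpl4 the capitals lie wholly before the RefSeq start, and so outside the mRNA annotated there. Coordinates and sequence are those of RefSeq on GRCm38.p6, a C57BL/6J genome, and were not checked for FVB/N. The genes with a long run are Rps6 (chr4:86857353-86857382, minus strand), the S6 kinase substrate of the small subunit, Rps27 (chr3:90213634-90213663, minus strand), a zinc-binding protein of the small subunit, Rpl4 (chr9:64173372-64173401, plus strand), which lines the peptide exit tunnel and whose run extends before the window to 14 bases, and Rpl22l1 (chr3:28805493-28805522, plus strand), the near copy of Rpl22. Those without one are Rpl41 (chr10:128549154-128549183, minus strand), the smallest ribosomal protein, Rpl9 (chr5:65391417-65391446, minus strand), near the base of the stalk, and Rpl7l1 (chr17:46782642-46782671, minus strand), the near copy of Rpl7.
Rps6: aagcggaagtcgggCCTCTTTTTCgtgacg
Rps27: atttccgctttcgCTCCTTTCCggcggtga
Rpl4: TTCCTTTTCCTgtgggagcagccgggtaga
Rpl22l1: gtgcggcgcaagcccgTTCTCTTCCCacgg
Rpl41: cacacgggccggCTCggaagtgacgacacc
Rpl9: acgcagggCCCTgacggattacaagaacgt
Rpl7l1: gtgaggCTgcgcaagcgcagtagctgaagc

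A run of at least 8 C or T between 20 bases before and 30 bases after the start was held by 33 of the 58 members with a RefSeq start window (56.9%), against 21.5% of the 5816 genes tested here that have one and 21.5% of the 27025 genes of the whole RefSeq table. The longest run had a median of 9 bases in the members, against 5 bases in the genes tested. Over the 300 bases from 250 before to 50 after the start, on either strand, CCGGAA was held by 55.2% of the members and by 35.0% of the genes tested (16.7% of the whole table). GGGCGG went the other way, with 63.8% of the members and 70.5% of the genes tested. TATAAA was equally common, in 8.62% of the members and 8.61% of the genes tested. These matches describe the letters in the windows, which may overlap one another, and the remaining 21 members had no window. The log2 fold changes of transgenic over control kidneys, described next, had a median of 0.071 over the 33 members with a run, 26 of them above 0, and of 0.045 over the 25 without, 17 of them above 0. No test was made of that difference.

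Levels are given as CPM, the counts of a gene scaled to the size of its library with TMM factors, computed from the authors' estimated counts. Depth was 29.0, 23.5 and 31.7 M estimated counts in transgenic libraries 1 to 3, and 28.05, 34.9 and 47.6 M in control libraries 1 to 3. Control 3 stood apart before any comparison: all 178 genes of X and Y in the table were listed at 0 in it, and no gene of X or Y was above 0. Those rows were left out of the fit, which tested 7194 genes, so that only autosomal genes are compared. Kidney markers were present in every library, with 8 of 8 proximal tubule markers listed. Their summed level was 60588 to 64034 CPM in transgenic and 60931 to 69919 CPM in control kidneys. Most of that sum was Kap, at 45318 to 50386 CPM in transgenic and 47457 to 55924 CPM in control kidneys. Of the 5 muscle markers, among them Myh6, none was listed. The sum of the 2 listed podocyte markers was 140 to 171 CPM in transgenic and 89.6 to 123 CPM in control kidneys, and that of the 3 listed adipocyte markers 109 to 166 CPM in transgenic and 89.6 to 294 CPM in control kidneys. Of the 5 urothelium markers 2 were listed, without the uroplakins, with a sum of 149.5 to 152 CPM in transgenic and 165.5 to 168 CPM in control kidneys. The sum of the 3 red blood cell markers tested was 499 to 757 CPM in transgenic and 532 to 925 CPM in control kidneys. That of the 4 thick ascending limb markers was 2726 to 3037 CPM in transgenic and 2853 to 3366 CPM in control kidneys. All 9 markers of urothelium, red blood cells and thick ascending limb had a log2 fold change below 0, none past the adjusted threshold of edgeR. In control 3, however, Hba-a1 (231 CPM) and Hba-a2 (0.258 CPM) lay below every transgenic library, and Hbb-bs (301 CPM) lay above. The 3 adipocyte markers and the only lymphocyte marker tested were also below 0, and the 2 podocyte markers were above 0. For the adipocyte markers Cfd and Car3, however, only control 2 lay above the transgenic libraries, at 77.2 and 39.4 CPM. Controls 1 and 3 lay below every transgenic library in both genes. The adipocyte marker Fabp4 was also highest in control 2, at 178 CPM. The other cell types were mixed: 4 above and 4 below for proximal tubule, 2 and 4 for collecting duct, 1 and 3 for macrophages. Distal convoluted tubule and endothelium each had 1 above and 1 below. Whether these cell types bear on the ribosomal protein genes was not tested. In whole tissue, fewer cells of a type and less RNA per cell cannot be told apart.

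Ribosomal protein mRNAs took a similar part of the counts in both groups. The share was taken over the genes of the table above 0 in control 3, so it leaves out X and Y and is not a share of all kidney mRNA. The 79 genes held 4.44, 4.54 and 4.05% of the counts in transgenic libraries 1 to 3, against 4.05, 4.14 and 4.38% in control libraries 1 to 3. Transgenic 3 was as low as control 1, control 3 lay close to transgenic 1, and the groups overlapped. The mean was 4.35 ± 0.260% in transgenic and 4.19 ± 0.173% in control kidneys (SD, n = 3 each), a difference of 0.154 percentage points that is smaller than the spread within either group. Without transgenic 3 that difference was 0.302 points and without transgenic 2 it was 0.0558 points. The balance of the subunits was steady: symbols starting Rpl held 1.44 to 1.46 times the counts of those starting Rps in transgenic and 1.42 to 1.45 times in control kidneys.

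No ribosomal protein gene passed the test between transgenic and control kidneys. Of the 79 genes, 0 passed an adjusted p of 0.05 in edgeR's quasi-likelihood test, where 0.0139% of the 7194 genes tested did: that single gene was Ren1, the renin gene, with 710 ± 47.9 CPM in transgenic and 298 ± 46.1 CPM in control kidneys (SD, n = 3 each; edgeR adjusted p 0.0359). At an unadjusted p under 0.05 there were again 0 members, against 1.82% of all genes, and the smallest unadjusted p of a member in edgeR was 0.117. DESeq2 also called 0 members. The log2 fold changes ran from -0.16 for Rpl22l1 to 0.16 for Rpl26, or 0.893-fold to 1.11-fold, and all 79 members lay within 0.2 of 0, as did 88.9% of all genes tested. The 95% confidence intervals reached at the widest from -0.59 to 0.53 on the log2 scale, and 77 of the 79 lay within 0.5 of 0. The SE had a median of 0.098 over the members.

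**Figure D1:**
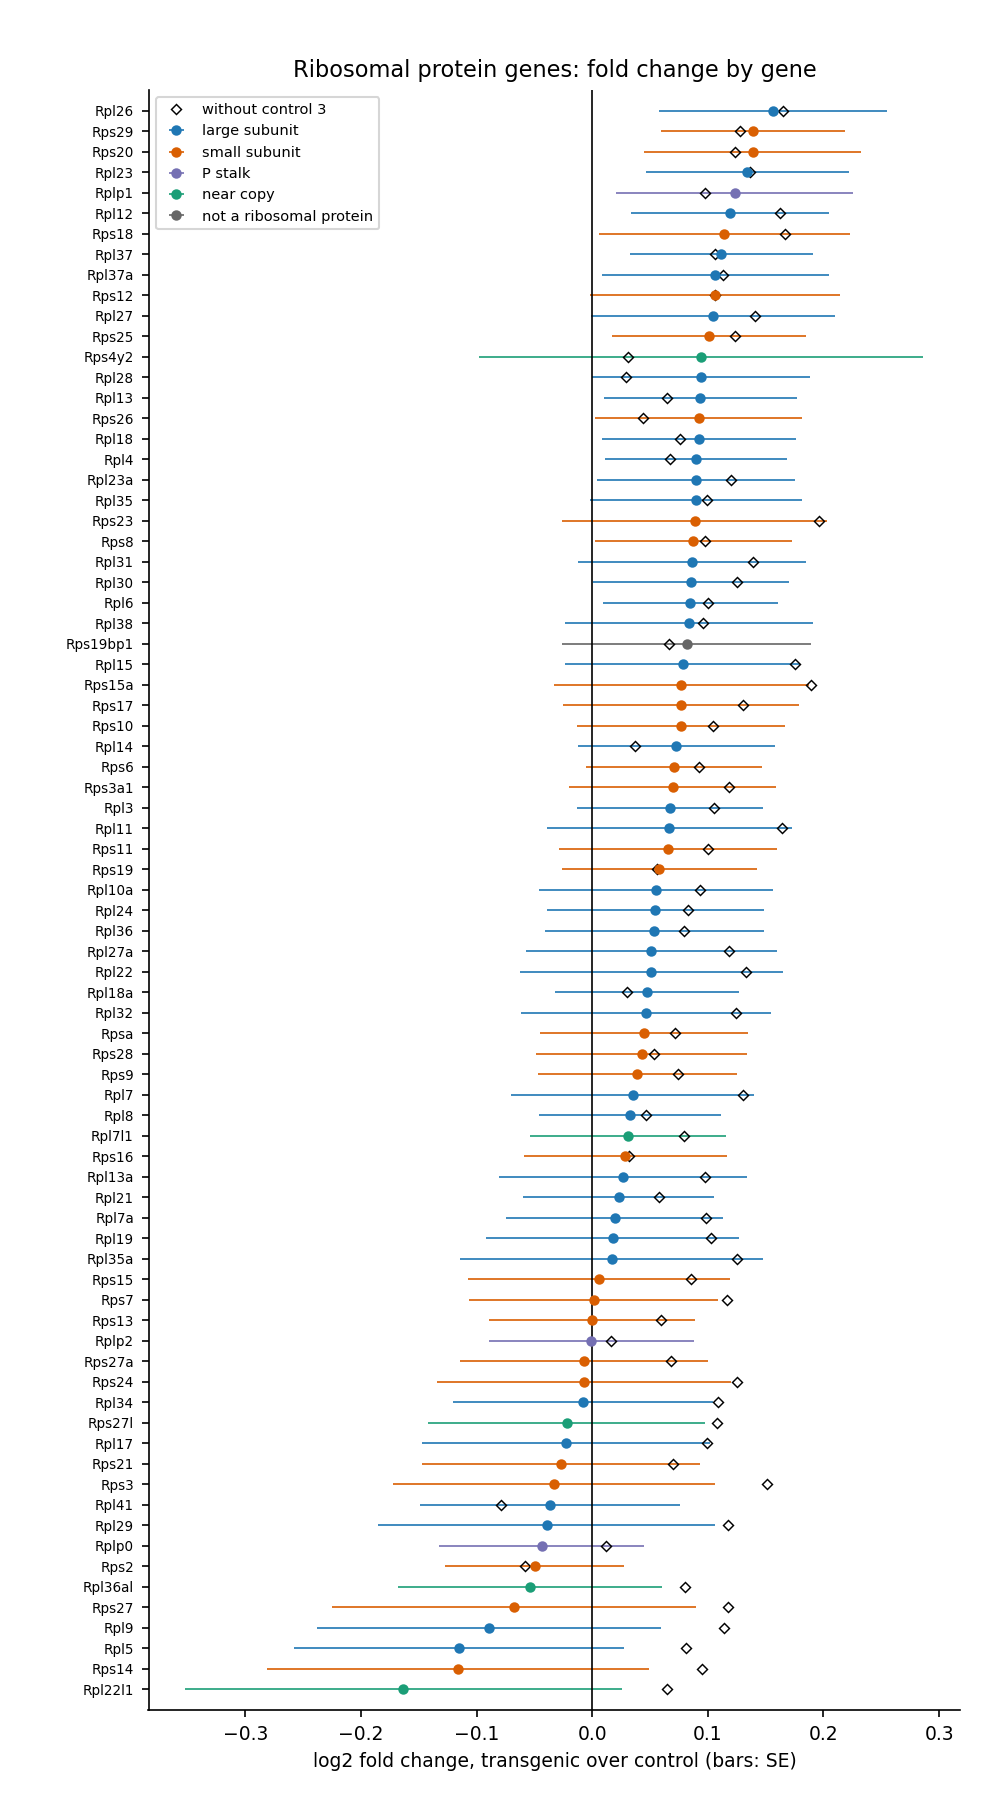
Log2 fold change of CPM, transgenic over control, for 78 of the 79 ribosomal protein genes, ordered by value, with filled points coloured by role, bars for the SE and open diamonds for the value without the library of control 3. All filled points lie between -0.16 and 0.16, most of them above 0, and the open diamonds of the genes at the foot, such as Rpl22l1 and Rps14, lie above 0.

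Small as they were, the differences leaned to the transgenic side. The log2 fold change was above 0 in 60 of 79 members (75.9%) against 50.3% of all genes, and its median was 0.055, against 0.001 over all genes tested. The large subunit proteins had a median of 0.061 with 34 of 40 above 0, and the small subunit proteins a median of 0.062 with 22 of 30 above 0. Of the near copies 3 of 5 were below 0, and of the P stalk genes 2 of 3. These genes move together from library to library, so the count of members above 0 is not a count of independent observations. The median depended on single libraries: it was 0.034 without transgenic 1, 0.019 without transgenic 2 (46 members above 0) and 0.115 without transgenic 3 (69 above 0). It was 0.046 without control 1, 0.028 without control 2 and 0.099 without control 3 (77 above 0).

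Libraries of the same group differed more than the groups did, as shown by the deviation of each gene's log2 CPM from its mean over the 6 libraries. The median deviation of the 79 genes was 0.06, 0.11 and -0.09 in transgenic 1, 2 and 3, and -0.05, -0.08 and 0.04 in control 1, 2 and 3. Transgenic 3 was thus the lowest library of all, below each control, while control 3 was the only control above 0. Within the transgenic group 71 of 79 genes were lowest in transgenic 3 (89.9%, against 32.1% of all genes) and 53 were highest in transgenic 2 (67.1%, against 35.5% of all genes). Among controls 56 of 79 were highest in control 3 (70.9%, against 44.3% of all genes) and 43 were lowest in control 2. Other short transcripts shared part of this order: the 683 other genes with transcripts under 1000 bases had medians of 0.02, 0.05 and -0.05 in transgenic 1, 2 and 3, and 0.03, -0.09 and 0.05 in control 1, 2 and 3. Whether transcript length bears on the levels of the ribosomal protein genes was not tested.

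**Figure D2:**
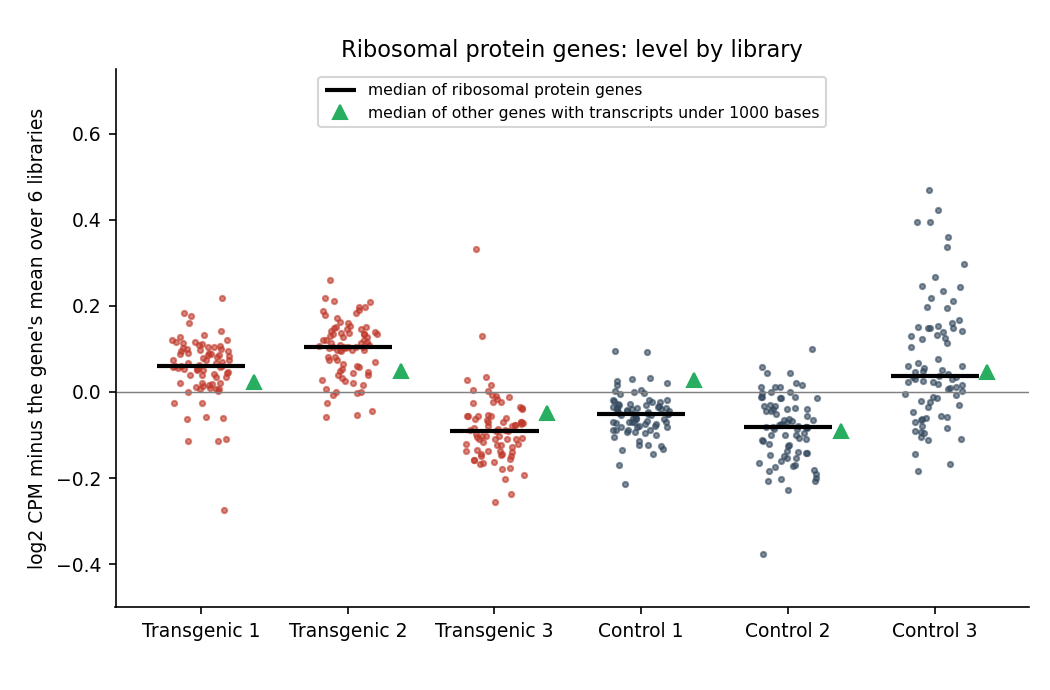
Log2 CPM minus the gene's own mean over the 6 libraries, by library, with 1 point per ribosomal protein gene, black bars for their median and green triangles for the median of 683 other genes with transcripts under 1000 bases. Transgenic 3 is lowest with a median of -0.09, transgenic 2 highest with 0.11, and control 3 has the widest scatter.

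The scatter among the genes was also widest in control 3. The interquartile range of the deviations was 0.077, 0.085 and 0.080 in transgenic 1, 2 and 3, against 0.052, 0.107 and 0.176 in control 1, 2 and 3. On the log2 scale control 3 minus the mean of controls 1 and 2 ran from -0.20 (Rpl28) to 0.61 (Rpl22l1), with a median of 0.11 in the members and 0.02 in all genes. It was above 0.3 in 16 members (20.3%, against 17.8% of all genes) and below 0 in 17. After Rpl22l1 the highest were Rps14, Rpl9, Rpl5, Rps27, Rps3 and Rpl29. Across the 79 members this deviation had a Pearson r of -0.42 with the GC percentage of the transcript, and across 7152 genes tested an r of -0.47, as a description over genes of the same libraries. Depth moves with it too, since control 3 is the deepest library. The part of either in these values was not tested.

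Members higher in every transgenic library than in every control numbered 4 (5.06%, against 2.96% of all genes), and members lower in every one numbered 0 (against 3.02% of all genes). Of these 4, Rps29, Rpl4 and Rpl6 are described. Rps29, a zinc-binding protein of the head of the small subunit, had 542, 559 and 499 CPM in transgenic kidneys and 492, 484 and 477 CPM in control kidneys. Its lowest transgenic library lay just above its highest control, for a 1.10-fold difference with a 95% interval of 0.971 to 1.25 (edgeR adjusted p 0.997). Rpl4 had 874, 833 and 844 CPM in transgenic and 792, 831 and 774 CPM in control kidneys, with transgenic 2 almost touching control 2 and a 1.06-fold difference (interval 0.940 to 1.21). Rpl6, on the outer surface of the large subunit, had 643, 681 and 644 CPM in transgenic and 609.8, 614 and 631 CPM in control kidneys. Transgenic 2 stood highest and control 3 came closest to the transgenic values, for a 1.06-fold difference (interval 0.940 to 1.20).

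The other members with the smallest p on the higher side were Rpl26, Rpl23, Rps20 and Rpl37. Rpl26, at the mouth of the peptide exit tunnel, had 740.0, 794 and 633 CPM in transgenic kidneys and 645, 643 and 656 CPM in control kidneys. Transgenic 1 and 2 were high, whereas transgenic 3 fell below all 3 controls, so the groups overlapped, with a 1.11-fold difference (interval 0.953 to 1.303). Rpl23, next to the site where the anti-association factor eIF6 binds, had 664, 640.2 and 566 CPM in transgenic and 553, 581 and 570.4 CPM in control kidneys. Rps20, of the small subunit head, had 561, 593 and 486 CPM in transgenic and 506, 497 and 486 CPM in control kidneys. In both genes transgenic 1 and 2 were the highest libraries and transgenic 3 lay among or below the controls. Rpl37, a zinc-binding protein of the large subunit, had 304, 321 and 288 CPM in transgenic and 273, 293 and 279.7 CPM in control kidneys, where control 2 lay above transgenic 3. Without transgenic 3, Rpl26 and Rps20 were the 2 members with an unadjusted p under 0.05, and neither passed the adjusted threshold in edgeR.

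On the lower side the smallest p values belonged to Rpl22l1, Rpl5, Rps14, Rps2, Rpl9 and Rplp0, and all but Rps2 turned to a positive log2 fold change with control 3 left out. Rpl5, which carries 5S rRNA with Rpl11 into the large subunit and with it binds the p53 regulator MDM2, had 749, 733 and 733 CPM in transgenic kidneys and 696, 700.5 and 1002 CPM in control kidneys. All 3 transgenic libraries lay above controls 1 and 2 and far below control 3. Its log2 fold change was -0.11 with control 3 and 0.08 without it. Rps14, of the small subunit platform, had 629, 654 and 527 CPM in transgenic and 592, 538 and 832 CPM in control kidneys, with log2 fold changes of -0.12 with control 3 and 0.10 without it. Rpl9, whose start site is shown above, had 579, 622 and 568 CPM in transgenic and 536, 553 and 792 CPM in control kidneys, with log2 fold changes of -0.09 with control 3 and 0.11 without it. In each of the 3 genes control 3 was the highest of the 6 libraries, and the groups overlapped.

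Rps2, at the mRNA entry of the small subunit, was the steadiest of all 79 genes, with a coefficient of variation of 2.90% over the 6 libraries. It had 823, 832 and 875 CPM in transgenic and 870.5, 884 and 862 CPM in control kidneys, and its log2 fold change stayed below 0 without control 3, at -0.06. Transgenic 3 was its only transgenic library among the controls. Over all members that coefficient ran up to 20.4% (Rpl22l1), with a median of 8.30%, against 9.38% for all genes tested.

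None of the 3 P stalk genes passed the test. Rplp0, the protein on which the stalk is built, had 1029, 1075 and 1077 CPM in transgenic and 1019, 1084 and 1177 CPM in control kidneys. Rplp1 had 1079, 1095 and 894 CPM in transgenic and 989, 923 and 905 CPM in control kidneys, while its partner Rplp2 had 501, 524 and 440.5 CPM in transgenic and 482, 484 and 499.8 CPM in control kidneys. Transgenic 3 was the lowest of the 6 libraries for both acidic proteins and not for Rplp0, and each gene's groups overlapped. The log2 fold changes were -0.04, 0.12 and 0.00 for Rplp0, Rplp1 and Rplp2, none past the threshold in edgeR, and those of Rplp0 and Rplp2 turned sign with some settings.

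Among members often followed for their functions, Rps6 had 614, 599 and 580.4 CPM in transgenic and 554, 568 and 586 CPM in control kidneys. Only control 3 reached into the transgenic range. Rpsa, also known as the laminin receptor precursor, had 1398, 1434 and 1262 CPM in transgenic and 1324, 1273 and 1371 CPM in control kidneys, with transgenic 3 lowest of all. Rps19, the gene most often mutated in human Diamond-Blackfan anaemia, had 686, 703 and 614 CPM in transgenic and 631, 653 and 639.8 CPM in control kidneys. Rpl11, the partner of Rpl5, had 623, 598 and 544 CPM in transgenic and 542, 509 and 635 CPM in control kidneys. Transgenic 3 was also lowest for Rps19, whereas for Rpl11 control 2 was lowest and control 3 highest, and the groups overlapped in all 3 genes. The log2 fold changes of these 4 were 0.07, 0.04, 0.06 and 0.07 for Rps6, Rpsa, Rps19 and Rpl11.

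The near copies were set beside the genes they are named after. Rpl22l1, which rises in mouse cells that lack Rpl22, had 62.8, 69.5 and 63.4 CPM in transgenic kidneys and 72.5, 52.4 and 94.1 CPM in control kidneys. Rpl22 had 307, 286 and 240.3 CPM in transgenic and 255, 251 and 298 CPM in control kidneys. Control 3 was the highest library for Rpl22l1 and transgenic 1 for Rpl22, and the groups overlapped in both. The ratio of Rpl22l1 to Rpl22 CPM was 0.237 ± 0.0299 in transgenic and 0.270 ± 0.0552 in control kidneys (SD, n = 3 each), a difference smaller than the spread among controls.

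Rps27l, in human and mouse cells a p53 target, had 339, 318 and 295 CPM in transgenic and 310.1, 279 and 378 CPM in control kidneys. Rps27 had 426, 438 and 341 CPM in transgenic and 381, 359 and 522 CPM in control kidneys. Both were highest in control 3, and their ratio was 0.796 ± 0.0700 in transgenic and 0.771 ± 0.0453 in control kidneys (SD, n = 3 each). Rpl7l1, a factor of large subunit assembly, was level, with 103, 104 and 102 CPM in transgenic and 98.5, 96.9 and 108 CPM in control kidneys. Rpl7 had 803, 804 and 734 CPM in transgenic and 749.6, 677 and 859 CPM in control kidneys, and for both genes the controls spanned all transgenic values. Rps19bp1 had 40.2, 35.0 and 31.7 CPM in transgenic and 35.4, 32.7 and 32.9 CPM in control kidneys, with transgenic 1 highest and transgenic 3 lowest.

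**Figure D3:**
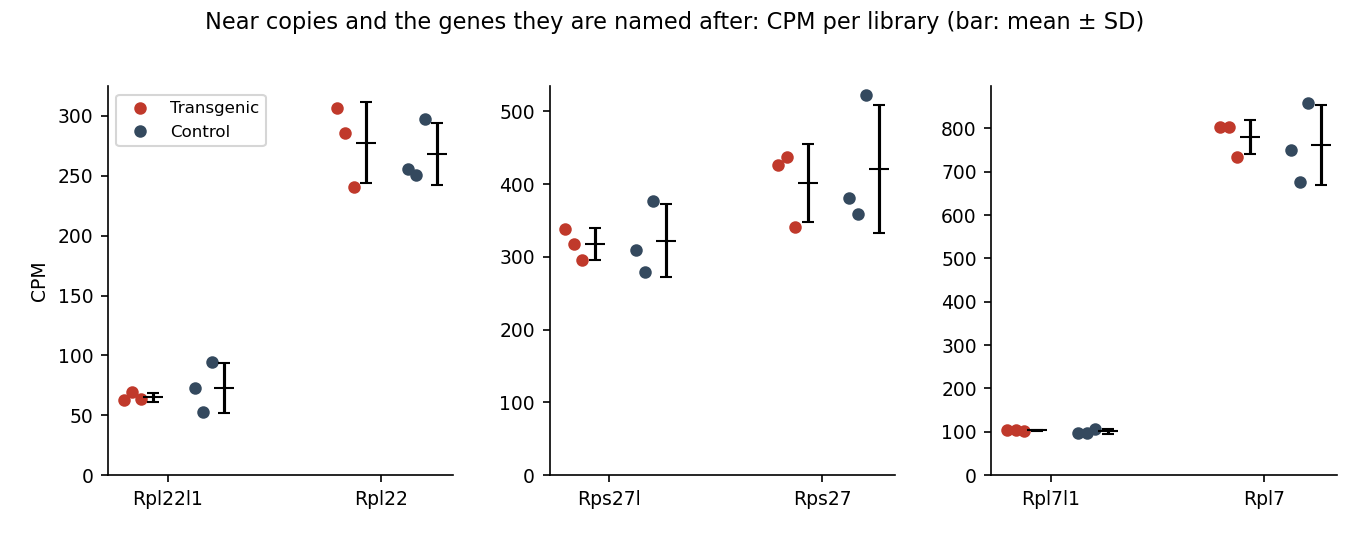
CPM per library for 3 near copies and the genes they are named after, with transgenic libraries in red, control libraries in blue, and black bars for mean ± SD of 3 libraries. In every panel the groups overlap, and control 3 is the highest control point of all 6 genes, at 94.1 CPM for Rpl22l1 and 522 CPM for Rps27.

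Rpl36al is a near copy of Rpl36a, which lies on X and was among the 4 genes left out. Rpl36al had 289, 283 and 269.8 CPM in transgenic and 275, 256 and 343 CPM in control kidneys, with control 3 highest. Of the 4 genes left out, Rpl10 had 718, 718 and 754 CPM in transgenic kidneys and 678 and 695 CPM in controls 1 and 2. Rps4x had 499.5, 555 and 526 CPM in transgenic kidneys and 471 and 543 CPM in controls 1 and 2. Rpl39 had 371, 369 and 295 CPM in transgenic kidneys and 338 and 289.8 CPM in controls 1 and 2, and Rpl36a 238, 227 and 193 CPM in transgenic kidneys and 203 and 197 CPM in controls 1 and 2. All 4 were listed at 0 in control 3 and were not in the fit reported. Rps4y2 was near the lower end of the table, at 4.99, 6.26 and 7.59 CPM in transgenic and 6.45, 5.87 and 5.37 CPM in control kidneys.

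Per kilobase of transcript, the ribosomal protein genes stood far above other genes in both groups. The mean over the 6 libraries had a median of 655 CPM per kb in the members, against 19.9 CPM per kb over all genes tested, and 53 members were among the 200 highest genes. At the top were Rpl41 with 2013 CPM per kb, Rplp1 with 1966 and Rps15, near the decoding site, with 1528 CPM per kb. Rpl41 had 813, 1005 and 787 CPM in transgenic and 895, 939 and 838 CPM in control kidneys, and Rps15 had 762, 857 and 677 CPM in transgenic and 733, 709.6 and 844 CPM in control kidneys. In both genes transgenic 2 was highest and transgenic 3 lowest of the 6 libraries, and the groups overlapped. At the bottom were Rps4y2 with 6.45 CPM per kb, the only member below the median of all genes, Rpl29 with 36.6 and Rpl7l1 with 39.2 CPM per kb. The transcript models of Rps15a (5179 bases) and Rps20 (3706 bases) are far longer than their coding parts of 390 and 357 bases, so that their 52.5 and 141 CPM per kb depend on the model.

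**Figure D4:**
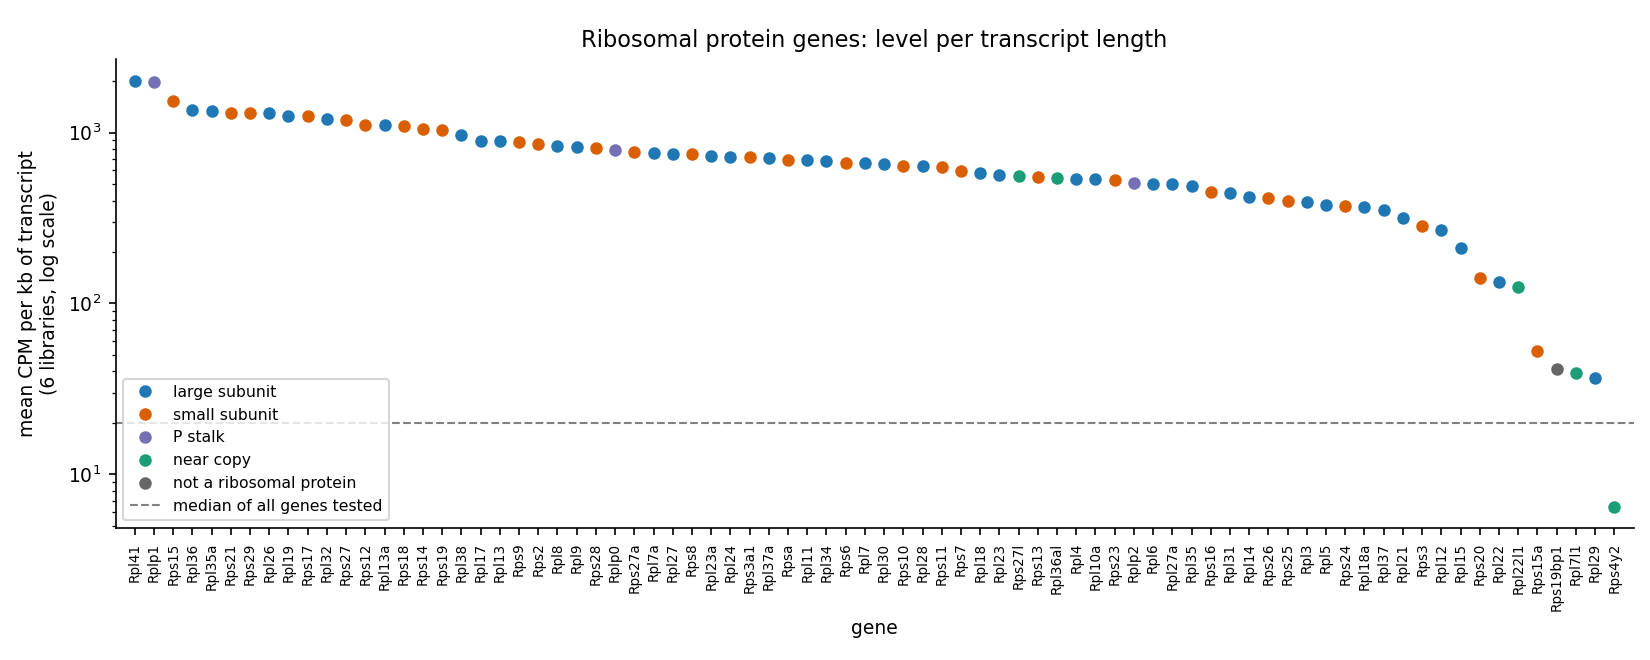
Mean CPM per kb of transcript over the 6 libraries, on a log axis, for 78 of the 79 ribosomal protein genes in falling order, coloured by role, with a dashed line at the median of all genes tested (19.9). All genes plotted but Rps4y2 lie above the line, and Rpl41 and Rplp1 lead at 2013 and 1966 CPM per kb.

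Most of these genes have near-identical pseudogenes. Of the 79 genes, 73 (92.4%) had at least 1 annotated pseudogene copy of at least 95% identity over at least 80% of the coding part, against 7.14% of the other genes tested. For genes without a coding part, such as Rps4y2, the whole transcript was used, and a copy found may be the gene's own entry. The median was 4 copies per gene and the highest 56, for Rpl21. The authors' estimated counts are not whole numbers, and how reads that fit both a gene and its copies were shared is not given in the sources used here, so each level may miss or include reads of such copies. Rpl29, with 26 copies, was listed at only 24.6, 25.6 and 29.1 CPM in transgenic and 22.9, 25.8 and 32.7 CPM in control kidneys. Rps2 also has 26 copies and yet one of the higher levels, 859.5 CPM per kb. For 20 members a copy lies on X or Y: their median deviation of control 3 from controls 1 and 2 was 0.14, against 0.08 for the 59 members without one. Among other genes it was 0.24 for the 52 with a copy on X or Y, 0.16 for the 456 with copies on autosomes alone and 0.00 for the 6607 without copies. Over the 59 members without such a copy the median log2 fold change was 0.058, close to the 0.055 of all 79.

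Genes that work with the ribosome were looked up from lists. Fau, which encodes a small subunit protein fused to a ubiquitin-like part and is missed by the symbols, had a log2 fold change of -0.01. Of the 8 elongation factor genes tested 4 were above 0 and 4 below (median -0.02), and of the 39 initiation factor genes 16 were above and 23 below (median -0.02). The 49 ribosome assembly genes split into 25 above and 24 below (median 0.00), the 14 ribosome-associated nascent chain factors into 6 above and 8 below (median -0.01). The 25 regulators of mTORC1 and TOP mRNAs had 8 above and 17 below (median -0.05). None of these lists held a gene past the adjusted threshold of edgeR. The only one with an unadjusted p under 0.05, Eif4ebp2, a brake on cap-dependent translation, averaged 7.44 ± 1.25 CPM in transgenic and 10.04 ± 0.244 CPM in control kidneys (SD, n = 3 each), with a log2 fold change of -0.43 (edgeR adjusted p 0.997). The difference between these lists and the ribosomal protein genes was not tested. Cryab itself had 186, 178 and 194 CPM in transgenic and 210.1, 223 and 292 CPM in control kidneys, lower without overlap, with a log2 fold change of -0.38 (edgeR adjusted p 0.997).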

How the data were processed

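Kidney RNA of 3 transgenic and 3 control samples, all headed Pre IRI, was sequenced on an Illumina HiSeq 2500, per the labels; the build was mm10, per the submitters' processing notes, and which aligner and counting program were used is not given in the sources used here. A single deposited table was used, limited by the authors, per the file headers, to genes with NRPKM of at least 5.0 in at least 2 of 6 samples. Its raw columns hold deposited estimated counts (5.31% of values under 3000 whole within 0.001), and its normalized columns deposited log2 values, used for 1 alternative. The other 12 per-sample columns, headed Post IRI, belong to no sample here and were not used. Estimated counts were rounded. edgeR 4.0.16 (R 4.3.3) fitted 7195 rows above 0 in control 3 by its quasi-likelihood test with TMM and filterByExpr, which removed 1 row; the Benjamini-Hochberg threshold was 0.05, two-sided. An exact permutation test of 3 against 3 cannot go below 0.1. Alternatives used limma 3.58.1 and DESeq2 1.42.0. Intervals assume the model's spread. The fit was tested on simulated data. Lengths and GC came from GENCODE M21 transcripts, copies from blastn 2.17.0, starts from RefSeq. The members, lists and alternatives were chosen with earlier results of these data known; the medians without members that have X or Y copies were added after seeing the data. Genes described per sample were the 6 smallest p in each direction, the stalk genes, Rpsa, Rps6, Rpl5, Rpl11, Rps19, near copies and their namesakes, the 3 highest and 3 lowest per kb, the extremes of fold change and members without overlap; Rpl10, Rps4x, Rpl39, Rpl36a and Fau account for genes outside the set. Genes that the rule names and the text does not are not reported here.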

Additional observations from a re-analysis of the deposited data

How the results depend on the processing

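No ribosomal protein gene passed an adjusted p of 0.05 in any of the settings tried, nor at 0.1, and the lowest adjusted p of a member was 0.546, in limma voom with array weights, where 4 had an unadjusted p under 0.05. Over all genes 1 was called, against 2 by DESeq2, 0 by limma on the log2 values of the authors and 0 with all rows kept. Leaving out 1 library gave 0 to 2. The median log2 fold change of the members kept its direction, from 0.019 to 0.115 with 1 library left out and at 0.044 with a GC and length correction (62 members above 0, against 48.4% of all genes). In deviations from their group means, same-numbered libraries correlated at 0.00089, 0.034 and 0.34, and differently numbered ones at -0.42 to 0.41. With 3 libraries per group these values cannot decide whether the numbers pair the samples. A replicate block gave 1 gene called, 0 members, 61 members above 0 and a median of 0.051. For the 32 single genes picked for description, 47 of 576 values in other settings changed sign.

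Sign changes were listed only for the genes picked for description. Some other members changed sign too, such as Rps3, at -0.033 in the fit reported and 0.11 with array weights. For the genes picked, the log2 fold changes that changed sign in other fits were these. With array weights they were 0.15 for Rpl29, 0.033 for Rpl36al, 0.066 for Rpl5, 0.10 for Rpl9, 0.033 for Rplp0, 0.0088 for Rplp2, 0.018 for Rps14, 0.059 for Rps27, 0.048 for Rps27l and -0.044 for Rps4y2. With the GC and length correction alone, and then with the replicate block added, Rpl22l1 was at 0.0012 and 0.0049, Rpl5 at 0.0079 and 0.011, Rps15 at -0.063 and -0.056, Rps19 at -0.0087 and -0.0077, and Rps27l at 0.079 and 0.078. Rplp2, at -0.00069 in the fit reported, was at 0.0022 with DESeq2 size factors, 0.00084 with TMM without the members and 0.0021 in DESeq2. With 1 library left out, Rpl22 ranged from -0.025 to 0.15, Rpl22l1 from -0.35 to 0.064, Rpl29 from -0.15 to 0.12, Rpl36al from -0.14 to 0.080, Rpl41 from -0.16 to 0.030, Rpl5 from -0.21 to 0.081, Rpl7 from -0.043 to 0.13 and Rpl9 from -0.19 to 0.11. Rplp0 ranged from -0.092 to 0.012, Rplp2 from -0.054 to 0.068, Rps14 from -0.24 to 0.095, Rps15 from -0.083 to 0.087, Rps19bp1 from -0.012 to 0.16, Rps27 from -0.17 to 0.12, Rps27l from -0.12 to 0.11 and Rps4y2 from -0.069 to 0.24. The cause was not tested. With 3 libraries per group, the SE of a member's log2 fold change was 0.076 to 0.192, which limits what could be seen.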
